A study of Homo sapiens with 3 samples.

Results

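The AXL family of receptors, their ligands GAS6 and PROS1, the 4 FGF receptors and FGF2 were followed in 3 populations of HCC827, an established human lung cancer line whose growth depends on a mutant EGF receptor. These 10 genes (AXL, TYRO3, MERTK, GAS6, PROS1, FGFR1, FGFR2, FGFR3, FGFR4 and FGF2) were chosen by name, and each had 1 row among the 30866 symbols of the authors' expression table. All populations came from a polyclonal pool carrying ClonTracer DNA barcodes. The vehicle population had 4 days of 0.1% DMSO, and the erlotinib-resistant population had 47 days of 2 µM erlotinib, which blocks the EGF receptor kinase. The dual-resistant population was made from the erlotinib-resistant one by a further 10 days of 2 µM erlotinib plus 0.2 µM crizotinib, which blocks MET. The series was made to characterise expression in cells resistant to the first drug or to both. There was 1 library per population, so no value below has a replicate error and no difference has a test. Drug, time and resistance differed together between the libraries and cannot be told apart. Below, the first step is the difference of the erlotinib-resistant from the vehicle library, the second step that of the dual-resistant from the erlotinib-resistant library, and the full span that of dual-resistant from vehicle. Values given in series run in the order vehicle, erlotinib-resistant, dual-resistant.

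AXL, TYRO3 and MERTK are the TAM receptors, receptor tyrosine kinases that are activated by the vitamin K-dependent proteins GAS6 and PROS1. GAS6 binds all TAM receptors and AXL most tightly, while PROS1, an anticoagulant plasma protein, acts through TYRO3 and MERTK. AXL is best known in lung cancer as a receptor that is high in mesenchymal-like cells and that can carry survival signals when the EGF receptor is inhibited. FGF receptors are tyrosine kinases that bind fibroblast growth factors together with heparan sulphate and signal through the adaptor FRS2 to ERK. Epithelial cells usually carry the IIIb splice forms of FGFR2, and mesenchymal cells often carry FGFR1.

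Expression is given as FPKM, a fragment count scaled by transcript length and by the number of mapped fragments, so that levels of different genes can be set side by side. Differences are log2 differences of FPKM + 1, which understate the change of low genes, and a gene is called higher or lower at a log2 difference of 1, which is 2-fold on that scale. Of the 10 genes, 8 reached 1 FPKM in vehicle cells, 8 in erlotinib-resistant cells and 9 in dual-resistant cells. All 10 entered the comparisons by reaching 1 FPKM in at least 1 library. FGFR2 did so in the vehicle library alone, so its direction was fixed by that limit. Depth could only be approximated. Single-exon genes put the worth of 1 fragment per kb at 0.0146, 0.0211 and 0.0232 FPKM, and the counting intervals below rest on it and cover counting error only. The populations are bulk samples, in which more cells carrying a transcript and more transcript per cell cannot be told apart.

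In the dual-resistant library, AXL, GAS6 and FGFR1 stood far above their levels in both other libraries. FGF2 was higher than in both by less, and FGFR3 was called higher against the erlotinib-resistant library only. None of the 10 genes was called lower in the second step. MERTK stood at 7.63 FPKM before that step and 3.99 after it, a log2 difference of -0.79 that was within the limit. In that step 5 of the 10 were higher and 0 lower, where 10.1% of all 13385 genes compared were higher, 7.22% lower and 17.4% either. On the FPKM + 1 scale, a gene below 1 FPKM in the starting library cannot be called lower. FGFR2 and FGFR3 started the second step below 1 FPKM, and AXL and FGFR1 started the first step and the full span below it. Over the full span 6 were higher (AXL, TYRO3, GAS6, FGFR1, FGFR4 and FGF2) and 2 lower (MERTK and FGFR2), with 11.0% of 13378 genes higher, 10.4% lower and 21.4% either. In the first step FGF2 was higher, FGFR2 was lower and 8 lay within the limit, where 3.81% of 13381 genes were higher, 6.03% lower and 9.84% either. The median log2 differences of the 10 genes were 0.31 in the first step, 1.15 in the second and 1.31 over the full span, beside medians of 0.00, -0.03 and -0.01 over all genes compared. Each pair of these comparisons shares a library. Of all called genes 38.7% were higher in the first step and 51.3% over the full span, and with libraries scaled to equal sums 53.7% and 66.1% were.

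**Figure D1:**
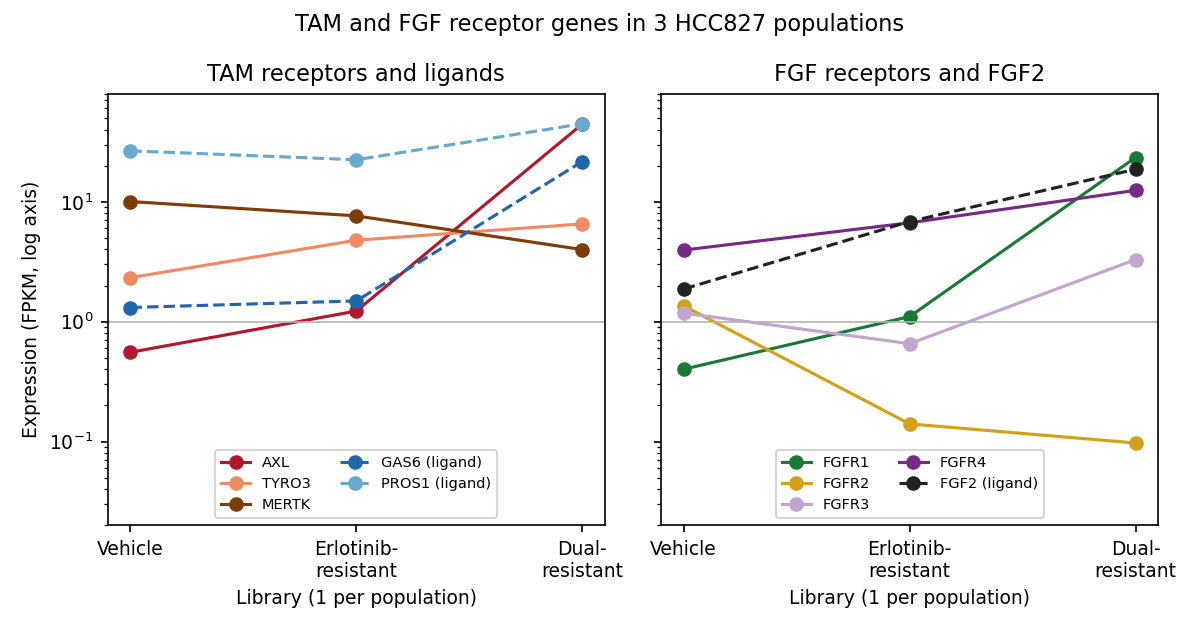
FPKM (log axis) of the 10 genes in the 3 libraries, with TAM receptors and ligands on the left and FGF receptors and FGF2 on the right. Each point is 1 library, dashed lines are ligands and the grey line marks 1 FPKM. AXL, GAS6 and FGFR1 stay at or below 1.49 FPKM in the first 2 libraries and reach 44.4, 21.6 and 23.4 in the dual-resistant library.

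AXL (Entrez ID 558, chromosome 19, 41725108 to 41767671, GRCh37 as for all gene positions of the table) had 0.555, 1.23 and 44.4 FPKM. Only the dual-resistant library was high, and the other 2 were near the lower limit of what was compared. The log2 difference was 0.52 in the first step and 4.35 in the second, a 20.4-fold difference on the FPKM + 1 scale and 36.2-fold between the deposited values. Only 24 of the 13385 genes compared had a larger difference in the second step. By the depth estimate AXL stood on about 180, 275 and 9059 fragments, with counting intervals (exact Poisson, 95%) of 0.477 to 0.642, 1.08 to 1.38 and 43.5 to 45.3 FPKM. Of the full span, 10.6% lay in the first step on the FPKM + 1 scale and 18.1% on the deposited values.

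TYRO3 (Entrez ID 7301, chromosome 15, 41851220 to 41871536), the TAM receptor best known from the nervous system, stood at 2.33, 4.78 and 6.54 FPKM. Its level increased in order over the 3 libraries, and its log2 differences of 0.80 and 0.38 were each within the limit while the full span was 1.18. The first step held 67.5% of it, against 10.6% for AXL. MERTK (Entrez ID 10461, chromosome 2, 112656191 to 112786945), the TAM receptor of phagocytes that clear dying cells, went the other way, at 10.0, 7.63 and 3.99 FPKM. It was lower over the full span, at -1.15, and the 2 steps, -0.36 and -0.79, were within the limit. With libraries scaled to equal sums, this call was lost at -0.91.

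GAS6 (Entrez ID 2621, chromosome 13, 114523522 to 114567046) had 1.31, 1.49 and 21.6 FPKM. The vehicle and erlotinib-resistant values had overlapping counting intervals, and the dual-resistant library stood apart. The log2 differences were 0.11 and 3.18, so that 3.24% of the whole lay in the first step. PROS1 (Entrez ID 5627, chromosome 3, 93591881 to 93692934) was the highest of the 10 genes in every library, at 26.6, 22.4 and 44.7 FPKM. In the dual-resistant library its counting interval of 43.6 to 45.8 overlapped that of AXL. Its second step of 0.96 was just within the limit, and was 1.06 with libraries scaled to equal sums and 1.01 by median ratio.

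The make-up of the TAM genes differed between the libraries. Shares within a library do not depend on how libraries are scaled. MERTK made up 77.7% of the summed TAM receptor FPKM in vehicle, 56.0% in erlotinib-resistant and 7.27% in dual-resistant cells. AXL made up 4.29%, 8.99% and 80.8%. MERTK thus stood 18.1-fold above AXL in vehicle, and AXL 11.1-fold above MERTK in the dual-resistant library. The summed TAM receptor level was 12.9, 13.6 and 54.9 FPKM, so the first step altered the sum by a ratio of 1.05 and the second by 4.03. Of the summed ligand FPKM, GAS6 made up 4.70%, 6.23% and 32.6%, and PROS1 the rest. PROS1 remained the more abundant ligand in the dual-resistant library, by 2.07-fold, where it had been 20.3-fold above GAS6 in vehicle.

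**Figure D2:**
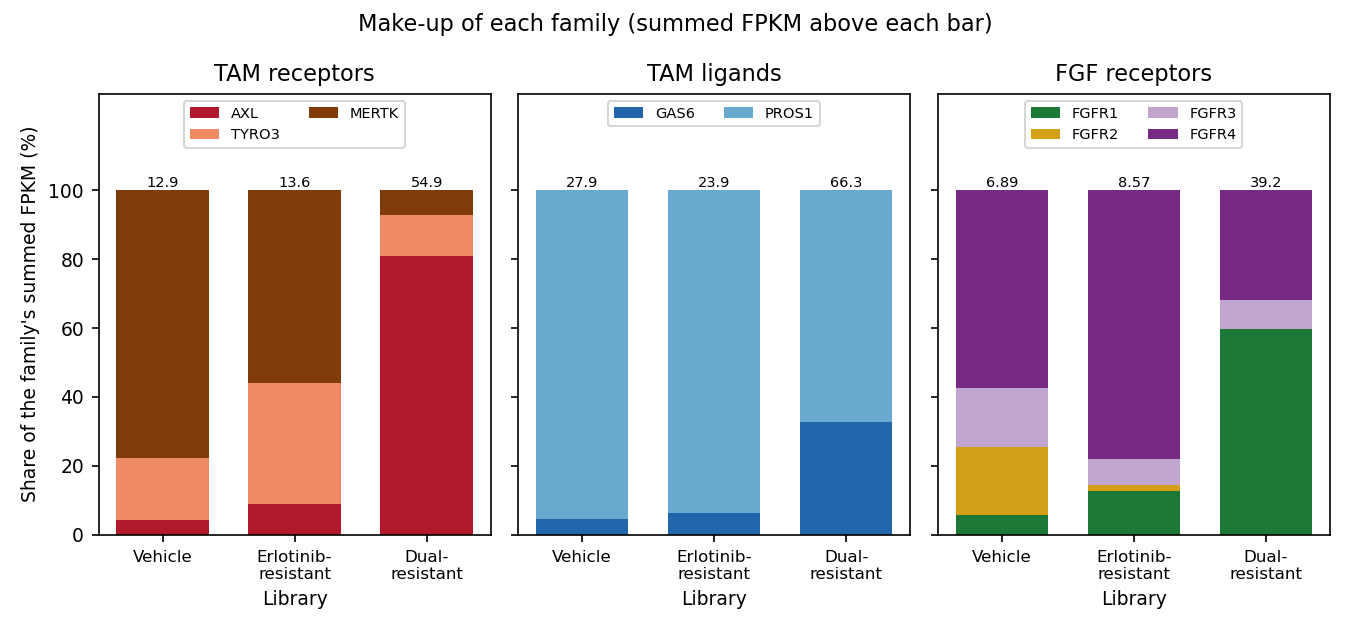
Share of each family's summed FPKM (%) held by each gene in the 3 libraries, for TAM receptors, TAM ligands and FGF receptors, with the summed FPKM above each bar. AXL goes from 4.29% to 80.8% of the TAM receptors and FGFR1 from 5.82% to 59.6% of the FGF receptors between the vehicle and dual-resistant libraries.

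AXL and GAS6 are a receptor and its ligand that were both higher in the dual-resistant library, and the bases just before their starts are shown for that reason. The sequences are from RefSeq (build GRCh38.p14), run from 250 to 31 bases before the start on the gene's strand, and lie at chr19:41218973-41219192 (plus strand, AXL, the first of 2 RefSeq starts) and chr13:113864107-113864326 (minus strand, GAS6). These coordinates belong to another build than the table's. Capitals mark E-boxes of the kind bound by ZEB and SNAI factors (CAGGTG or its reverse complement CACCTG) and GC boxes of the kind bound by SP1 (GGGCGG or CCGCCC).
AXL: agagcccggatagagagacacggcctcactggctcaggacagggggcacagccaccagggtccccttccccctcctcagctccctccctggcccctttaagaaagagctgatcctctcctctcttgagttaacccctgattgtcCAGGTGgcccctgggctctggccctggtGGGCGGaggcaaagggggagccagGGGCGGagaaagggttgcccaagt
GAS6: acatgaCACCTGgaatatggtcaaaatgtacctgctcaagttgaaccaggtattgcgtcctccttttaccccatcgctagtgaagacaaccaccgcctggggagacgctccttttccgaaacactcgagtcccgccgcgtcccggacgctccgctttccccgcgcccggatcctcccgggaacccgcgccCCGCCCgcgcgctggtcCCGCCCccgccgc
Each window held 1 E-box, 106 bases before the start in AXL and 244 bases before it in GAS6, and 2 GC boxes. Of 35116 RefSeq windows of the same 220 bases, 16.0% held the E-box and 38.9% the GC box on either strand. Neither window held the AP-1 motif TGANTCA (5.98% of all windows) or the TEAD motif GGAATG (10.7%), searched on both strands. The window before the second RefSeq start of AXL, which is not printed, held 1 TEAD match on the opposite strand, 212 bases before that start, and 13 CpG sites. The windows were alike in GC content, at 64.1% in AXL and 64.5% in GAS6, and differed in CpG sites, of which AXL held 4 and GAS6 25, beside a median of 9. A match here is a description of the letters only, and no measurement of binding or methylation was made.

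Around the TAM receptors, the list of ligand-carboxylating enzymes, other TAM ligands, shedding proteases and PROS1-binding proteins had 1 of 8 compared higher and 2 lower in the second step, with a median of 0.35. Of all genes 10.1% were higher and 7.22% lower in that step. VKORC1, the vitamin K reductase that supplies the cofactor for the carboxylation of GAS6 and PROS1, was the higher one, at 46.4, 37.9 and 112 FPKM. GGCX, the carboxylase itself, stood at 5.97, 6.0 and 8.19 FPKM, within the limit. LGALS3, which encodes galectin-3, reported as a ligand of MERTK, was lower, at 623, 337 and 120 FPKM. C4BPA, a chain of the complement regulator whose sister chain C4BPB binds PROS1, was lower too, at 12.4, 2.26 and 0.108 FPKM. ADAM10, a protease that sheds the AXL ectodomain, stood at 24.9, 35.1 and 43.6 FPKM and its relative ADAM17 at 24.9, 32.8 and 24.9. Of the other vitamin K-dependent genes only PRRG2 and PRRG4, which encode transmembrane Gla proteins, reached 1 FPKM. PRRG4 was lower in the second step, at 4.38, 5.32 and 1.91 FPKM, and PRRG2 stood at 4.33, 1.68 and 0.786.

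Of 13 transcription factors reported to act on AXL, 1 was higher and 1 lower in the second step, beside 10.1% and 7.22% of all genes. The median was 0.11. WWTR1, which encodes the YAP relative TAZ, was higher, at 12.6, 21.9 and 45.8 FPKM, and SP1 lower, at 16.2, 28.7 and 12.6. FOSL1, an AP-1 subunit, stood at 67.3, 146 and 111 FPKM and was higher in the first step. Over the full span WWTR1, TEAD1, HIF1A and MITF were higher and JUN lower, 4 and 1 of 12 compared, beside 11.0% and 10.4% of all genes. YAP1, with no value for vehicle, stood at 43.3 FPKM before and 46.6 after the second step.

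FGFR1 (Entrez ID 2260, chromosome 8, 38268656 to 38326352) had 0.401, 1.10 and 23.4 FPKM. As for AXL, the dual-resistant library alone was high. The log2 differences were 0.58 and 3.54, the second an 11.6-fold difference on the FPKM + 1 scale and 21.2-fold between the deposited values, and 77 of the 13385 genes compared had a larger one. FGFR1 stood on about 148, 281 and 5412 fragments by the depth estimate.

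The other FGF receptors followed courses of their own. FGFR4 (Entrez ID 2264, chromosome 5, 176513921 to 176525126), a receptor typical of liver and some carcinomas, stood at 3.96, 6.68 and 12.4 FPKM. Its steps of 0.63 and 0.81 were within the limit and summed to 1.44 over the full span. FGFR3 (Entrez ID 2261, chromosome 4, 1795039 to 1810599) was lowest in the erlotinib-resistant library, at 1.18, 0.654 and 3.29 FPKM, and was higher in the second step by 1.38. Its full span of 0.98 was just within the limit, and it passed the limit at smaller pseudocounts (1.17 at 0.5 and 1.41 at 0.1 FPKM) and under both scalings. FGFR2 (Entrez ID 2263, chromosome 10, 123237844 to 123357972) had 1.35, 0.140 and 0.0972 FPKM. Its first step was -1.05, or -0.96 with libraries scaled to equal sums, which is within the limit. Its last 2 values stood on about 20.4 and 12.8 fragments, with overlapping counting intervals of 0.0862 to 0.216 and 0.0515 to 0.167 FPKM, so a difference between them was not detectable at this depth.

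Within the FGF receptor family, FGFR4 made up 57.4% of the summed FPKM in vehicle, 77.9% in erlotinib-resistant and 31.7% in dual-resistant cells, and FGFR1 made up 5.82%, 12.8% and 59.6%. FGFR2 went from 19.6% to 1.64% and 0.248%. The summed level was 6.89, 8.57 and 39.2 FPKM. FGFR4 stood 9.86-fold above FGFR1 in vehicle, and FGFR1 stood 1.88-fold above FGFR4 in the dual-resistant library. The table has 1 value per gene, so splice forms of these receptors were not measured.

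FGF2 (Entrez ID 2247, chromosome 4, 123747863 to 123819390), a ligand of several FGF receptors that lacks a signal peptide, stood at 1.87, 6.84 and 18.7 FPKM. It was the only one of the 10 genes that was higher in both steps, by log2 differences of 1.45 and 1.33, with 52.2% of the whole in the first step. With a pseudocount of 0.1 FPKM, AXL, TYRO3 and FGFR1 also passed the limit in the first step, at 1.02, 1.01 and 1.26. NUDT6 overlaps the end of FGF2 in the table and is transcribed from the opposite strand, and whether reads were assigned by strand is not given in the sources used here. NUDT6 stood at 6.25, 6.77 and 7.45 FPKM, with log2 differences of 0.10 and 0.12. Sharing of reads between NUDT6 and FGF2 was not tested.

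The order of the 10 levels differed between the libraries. In vehicle cells it ran PROS1, MERTK, FGFR4, TYRO3, FGF2, FGFR2, GAS6, FGFR3, AXL and FGFR1, with overlapping counting intervals for the neighbours FGFR2, GAS6 and FGFR3. In erlotinib-resistant cells FGF2 and FGFR4, at 6.84 and 6.68 FPKM, had overlapping intervals below MERTK, as did GAS6 and AXL, and AXL and FGFR1, near the lower end. In dual-resistant cells the order was PROS1, AXL, FGFR1, GAS6, FGF2, FGFR4, TYRO3, MERTK, FGFR3 and FGFR2, and of these neighbours PROS1 and AXL alone overlapped. AXL stood above 2.38% of the genes that reached 1 FPKM in erlotinib-resistant cells and above 84.1% of them in dual-resistant cells. For FGFR1 these shares were 1.16% and 70.5%, and for GAS6 they were 4.81% and 68.0%. The ligand GAS6 stood 2.36-fold above its receptor AXL in vehicle, and AXL stood 2.05-fold above GAS6 in dual-resistant cells. FGF2 stood 4.67-fold and 6.21-fold above FGFR1 in the first 2 libraries, and FGFR1 stood 1.25-fold above FGF2 in the last.

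Of the 18 secreted FGF ligands, 3 reached 1 FPKM in any library. Besides FGF2, FGF5 stood at 0.0184, 0.136 and 4.88 FPKM, a log2 difference of 2.37 in the second step, though its direction was fixed by its reaching 1 FPKM in the dual-resistant library alone. FGF9 stood at 0.185, 1.16 and 0.158 FPKM, within the limit. Of the ligands of the FGFR2 IIIb form, FGF7 stood at or below 0.0223 FPKM and FGF10 was listed at 0 in every library. Of the intracellular FGF homologous factors, which do not bind FGF receptors in the usual way, FGF13 stood at 33.9, 15.2 and 9.13 FPKM and was lower in the first step, at -1.11.

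FGF co-receptors and binding proteins were higher for 9 of 14 compared and lower for 1 in the second step, with a median of 1.31, beside the 10.1% and 7.22% of all genes. Over the full span 7 were higher and 2 lower, beside 11.0% and 10.4% of all genes. In the first step none was higher and 2 lower, beside 3.81% and 6.03%. The heparan sulphate proteoglycans GPC4, at 0.122, 0.238 and 22.2 FPKM, and SDC3, at 11.9, 4.95 and 28.3 FPKM, were among those with the largest second-step differences, at 4.23 and 2.30. NCAM1, an adhesion molecule that binds FGF receptors, stood at 0.0303, 0.135 and 9.46 FPKM and GPC1 at 11.5, 7.30 and 36.4. The others that were higher were GPC6, SDC2, FLRT2, FLRT3 and FGFRL1, a receptor-like protein with no kinase domain, at 18.5 FPKM against 8.56. NCAM1, GPC4, SDC2 and FLRT2 were at 1 FPKM or more only in dual-resistant cells, so their direction was fixed by that limit. They could not have been called lower, and the count and median of the list include them. FGFBP1, a carrier that releases FGFs from the matrix, was lower, at 4.64, 3.0 and 0.115 FPKM. The most abundant members of the list were SDC4, at 233, 165 and 179 FPKM, and SDC1, at 124, 61.7 and 41.0, which was lower over the full span at -1.58. Summed over the list, the level was 409, 265 and 371 FPKM. The klotho co-receptors KL and KLB stayed at or below 0.0384 FPKM. With no filter on low values the list's median was 0.57.

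Enzymes of heparan sulphate synthesis had 1 of 10 higher and 1 lower in the second step (median -0.05), beside 10.1% and 7.22% of all genes. NDST1, a sulphotransferase of the chain, stood at 13.1, 10.7 and 36.2 FPKM and HS3ST1, another one, at 30.2, 16.8 and 4.72. Of the adaptors and proximal effectors downstream of these receptors, 16 of 17 lay within the limit in the second step (median -0.11). Of all genes 17.4% lay past the limit in that step, so most genes were within it too. Among the 16 were FRS2, at 5.55, 6.74 and 6.42 FPKM, and GRB2, at 38.7, 39.4 and 60.4. The other of the 17 was PLCG1, at 5.89 FPKM in vehicle and 26.8 in dual-resistant cells and listed at 0 in between. Such a 0 may be an estimate that failed.

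FGF and ERK signals induce a set of feedback inhibitors (Sprouty and SPRED proteins, IL17RD and DUSP phosphatases) and the ETS transcription factors ETV1, ETV4 and ETV5. Of these 12 genes, 6 were lower and none higher in the second step, beside 7.22% and 10.1% of all genes. Their median was -1.27. The 6 were 3 inhibitors and the 3 ETS factors. SPRY4, a Sprouty inhibitor of receptor signalling, stood at 4.99, 3.94 and 0.353 FPKM and the ETS factor ETV1 at 1.38, 5.27 and 0.958. The phosphatases DUSP6 and DUSP5, which inactivate ERK, and the factors ETV4 and ETV5 completed the 6, with log2 differences of -4.70, -4.06, -2.85 and -2.33. In the first step ETV1 was higher, at 1.40, and DUSP6 and SPRY1 were lower, at -1.47 and -1.32. IL17RD, an FGF receptor inhibitor also called SEF, stood at 1.05, 1.42 and 1.85 FPKM. These genes also respond to other receptors, and the part of FGF receptors in their levels was not tested.

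Of 8 splicing regulators of FGF receptor exons, 2 were lower in the second step and none higher (median -0.06), beside 7.22% and 10.1% of all genes. The 2 lower ones were ESRP1, at 122, 141 and 7.01 FPKM, and ESRP2, at 29.9, 31.3 and 9.31, the epithelial factors that promote the IIIb forms. PTBP1, a repressor of the same exons, stood at 141, 176 and 139 FPKM and RBFOX2 at 11.6, 18.8 and 26.0.

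**Figure D3:**
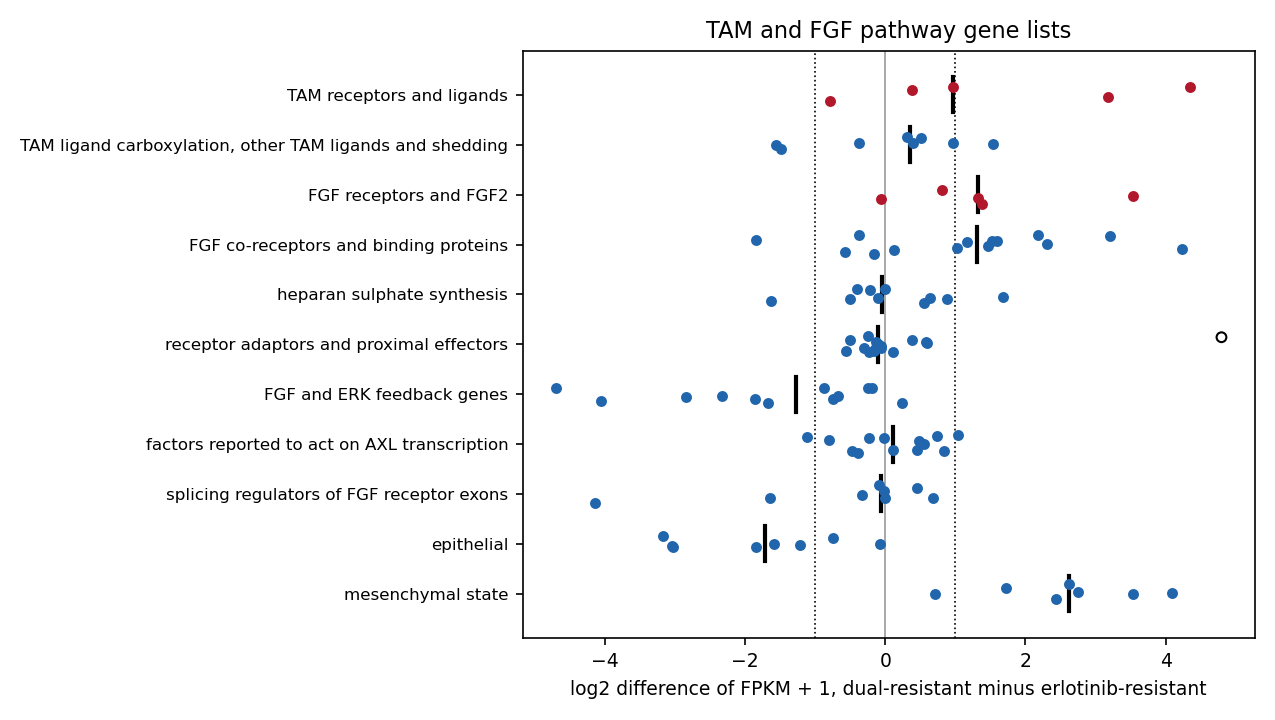
Log2 difference of FPKM + 1 between the dual-resistant and erlotinib-resistant libraries for each compared gene of 11 lists. Dots are genes (red for the TAM and FGF receptor genes themselves, open for a gene listed at 0 in either library), black bars are medians and dotted lines mark the limit of 1. FGF co-receptors and binding proteins lie mostly to the right (median 1.31) and FGF and ERK feedback genes to the left (median -1.27).

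Among all 58 receptor tyrosine kinases of the table, AXL ranked 31, 24 and 3 by FPKM in the order given, and FGFR1 ranked 33, 25 and 10. EGFR, at 171, 885 and 698 FPKM, and MET, at 98.9, 763 and 96.2, stood above AXL throughout. AXL made up 3.84% of the summed receptor FPKM in the dual-resistant library, FGFR1 2.02% and EGFR 60.4%. Of the 32 receptors compared, AXL and FGFR1 had the largest log2 differences in the second step, and MET had the lowest, at -2.97. Of the 25 that are neither TAM nor FGF receptors, 3 were higher (EPHA4, FLT3 and PDGFRB) and 5 lower (MET, ERBB3, EPHA1, MST1R and EPHA2). The median of the 25 was -0.30, and of all genes 10.1% were higher and 7.22% lower. The 3 higher receptors, at 2.80, 1.26 and 1.01 FPKM, were compared only because dual-resistant cells reached 1 FPKM, so they could not have been called lower. Of the 7 TAM and FGF receptors, AXL, FGFR1 and FGFR3 were called higher and none was called lower. FGFR2 and FGFR3, below 1 FPKM in erlotinib-resistant cells, could not have been called lower. PDGFRB was listed at 0 in both other libraries, and EPHA1 was listed at 0 in dual-resistant cells. In the first step 3.81% of all genes were higher. Of the 25 other receptors 5 were, led by MET at 2.93 and EGFR at 2.36, and none of the 7 was.

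**Figure D4:**
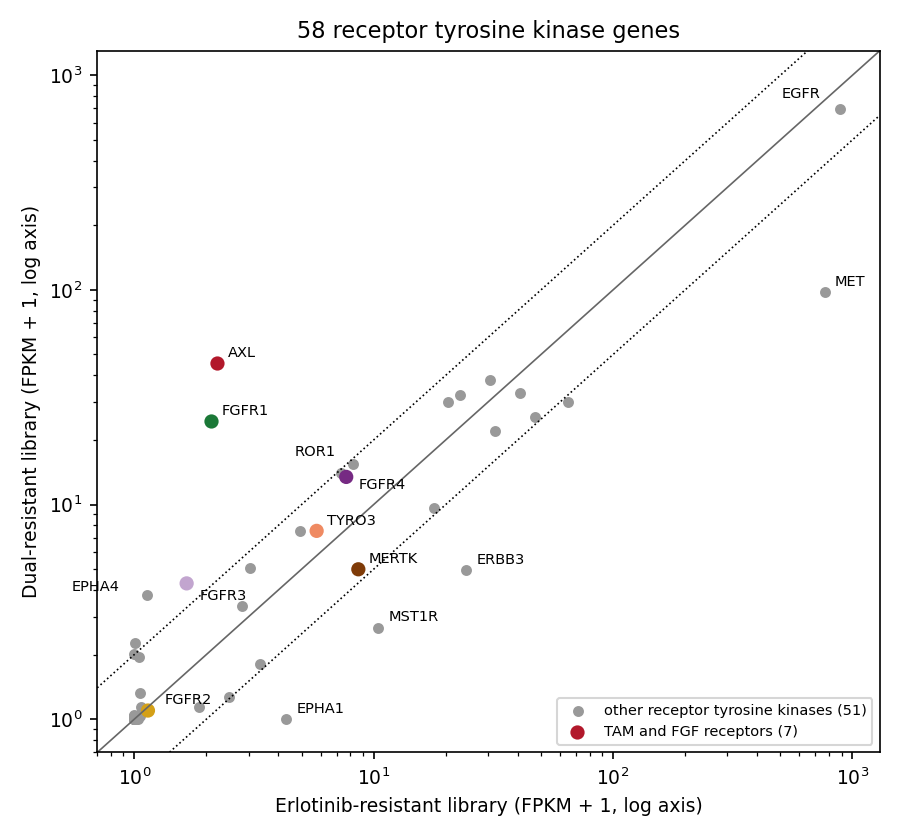
FPKM + 1 of 58 receptor tyrosine kinase genes in the erlotinib-resistant (x) and dual-resistant (y) libraries, on log axes. Each point is a gene, the solid line marks equal values and dotted lines a 2-fold difference. AXL and FGFR1 lie far above the dotted line, at 44.4 against 1.23 FPKM and 23.4 against 1.10, and MET lies below it, at 96.2 against 763.

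Genes with a course like that of AXL, GAS6 or FGFR1 were looked up by the distance between their pair of log2 differences (first and second step) among 10052 other genes with at least 5 FPKM in a library and none listed at 0. Nearest to AXL were FAM101B, DYSF, GPRC5B, FILIP1L and THBS2, at distances of 0.04 to 0.26, with DYSF (dysferlin, a membrane repair protein) at 0.606, 1.11 and 41.2 FPKM and THBS2 (a matrix glycoprotein) at 0.341, 0.628 and 30.0. Nearest to FGFR1 were PMP22, COL4A1, ALPP, SRPX and MYLK, with COL4A1 (a basement membrane collagen) at 0.352, 0.859 and 18.2 FPKM and MYLK (the kinase of myosin light chain) at 2.60, 4.63 and 53.3. Nearest to GAS6 were NCAM1, RUNDC3B, LHFP, DCLK1 and LPHN2. FGFR1 was itself 29th in distance to AXL, at 0.82, and GAS6 63rd, at 1.24. These names depend on the pseudocount. At 0.1 FPKM, 2 of the 5 genes near AXL, 0 of those near GAS6 and 1 of those near FGFR1 were shared with the lists given. With 3 libraries, this likeness rests on 2 differences only.

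Markers of the cells moved in the same comparison. Of 8 epithelial markers, 6 were lower in the second step (median -1.72), beside 7.22% of all genes. The summed level of the 8 was 6182, 5925 and 2438 FPKM. KRT19 and KRT8 were within the limit, at 752 and 542 FPKM in dual-resistant cells. Of the 7 mesenchymal markers compared, 6 were higher in the second step (median 2.62), beside 10.1% of all genes. The direction of 3 of the 6, ZEB1, ZEB2 and CDH2, was fixed by their being at 1 FPKM or more only in dual-resistant cells. VIM, at 7.04, 23.3 and 414 FPKM, and FN1, at 101.1, 27.9 and 176, passed in every library. SPARC, the last of the 6, stood at 4.92, 0.299 and 3.27 FPKM. Being below 1 FPKM before the second step, SPARC could not have been called lower in it either. In the first step VIM and SNAI2 were higher, at 1.60 and 2.66, and FN1 and SPARC lower, at -1.82 and -2.19. Of all genes 3.81% were higher and 6.03% lower in that step. Over the full span 5 of the 7 were higher and none lower, beside 11.0% and 10.4% of all genes. The 5 include ZEB1, ZEB2 and CDH2, whose direction was fixed here too. FN1 and SPARC were within the limit, at 0.79 and -0.47. All 8 markers of the list, with TWIST1 that was not compared, summed to 114, 64.3 and 639 FPKM. Of the repressors of epithelial genes, ZEB1 and ZEB2 stood at 5.98 and 7.03 FPKM in the dual-resistant library and at or below 0.295 in the others. SNAI2, another of them, stood at 1.08, 12.2 and 20.6 FPKM. It was higher in the first step, by 2.66, and within the limit in the second, at 0.71. The courses of these repressors thus differed. The part of ZEB1, ZEB2 and SNAI2 in the levels of AXL, GAS6 and FGFR1 was not tested. Of 8 fibroblast markers, the summed level was 3.90, 2.57 and 8.27 FPKM, PDGFRA was listed at 0 in all libraries, and DCN and THY1 stayed at or below 0.0215 FPKM. COL1A1, a collagen chain, held most of that sum, at 3.84, 2.48 and 5.38 FPKM, within the limit. Of the 3 fibroblast markers compared, the other 2, LUM and PDGFRB, were higher in the second step, beside 10.1% of all genes. Only dual-resistant cells reached 1 FPKM of them, at 1.52 and 1.01, so their direction was fixed. None of 4 endothelial markers reached 1 FPKM in a library. Of 5 leukocyte markers CD3E was listed at 0 and PTPRC stood at or below 0.137 FPKM, while CD68, a lysosomal protein, stood at 45.5, 115 and 66.5 and CD14, a receptor of myeloid cells, at 4.10, 0.597 and 0.612. CD68 was higher and CD14 lower in the first step, and both were within the limit in the second. Of the 3 lung epithelial markers compared, 2 were lower in the second step (median -1.55), beside 7.22% of all genes. NAPSA, an aspartic protease of alveolar cells, was lower, at 147, 81.4 and 10.1 FPKM. SFTPB, a surfactant protein, was lower too, at 0.663, 2.00 and 0.0213. SFTPB was compared only through the erlotinib-resistant library, so its direction was fixed, and the median is its own value. NKX2-1, the lung lineage factor, stood at 56.0, 40.01 and 28.4 FPKM, within the limit.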

How the data were processed

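RNA of 3 barcoded HCC827 populations was sequenced, with 1 library each, and the authors deposited 1 table of FPKM values per gene. Per the submitters' processing notes, GRCh37, TopHat 1.3 and Cufflinks 1.3 were used. The sources used here do not give the gene set, strandedness or settings. Rows that share a symbol were summed. A pseudocount of 1 FPKM was added, log2 differences were taken for genes that reached 1 FPKM in any library and had both values, and a difference of 1 was the limit for a call. With 1 library per group no test was run. The worth of 1 fragment was taken as percentile 1 of FPKM times length over single-exon genes of 1 to 5 kb, picked by symbol from GENCODE 29, whose transcript lengths also gave the approximate fragments of each gene. The calling script was checked on simulated data built from genes well above the limit of expression in vehicle cells. Calls at low values, where most of the 10 genes stood in vehicle cells, were not checked that way. The work was done in Python 3.11.15 with pandas 2.3.3 and scipy 1.17.1. The 10 genes and the lists were chosen with earlier results of these data known. The rule for named genes took all 10, up to 4 genes of each list with the largest second-step difference and those past the limit, the 5 genes nearest to AXL, GAS6 and FGFR1, and EGFR and MET. Other genes were named after their values were seen. Alternatives were other pseudocounts, 2 scalings, other filters, the highest of duplicate rows and a stricter limit.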

Additional observations from a re-analysis of the deposited data

How the results depend on the processing

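Of 150 log2 differences of the 10 genes recomputed under other pseudocounts, scalings and duplicate handling, 139 stayed on the same side of the limit and none turned in direction. With a pseudocount of 0.1 FPKM, 4 genes were called higher in the first step, with AXL at 1.02, TYRO3 at 1.01 and FGFR1 at 1.26, and 856 of all genes in place of 510. With libraries scaled to equal sums, FGFR2 (-0.96, first step) and MERTK (-0.91, full span) lost their calls, leaving 0 and 1 of the 10 lower, and PROS1 gained one in the second step (1.06, and 1.01 scaled by median ratio). Over the full span FGFR3 passed the limit at 1.41 and 1.17 with pseudocounts of 0.1 and 0.5 and at 1.15 and 1.0 under the 2 scalings. With at least 5 FPKM required, FGFR2 and FGFR3 were not compared, and 0 were lower in the first step and 1 over the full span. At a limit of 2, 0 were higher and 0 lower in the first step (58 and 213 of all genes), 3 higher in the second step (391 higher and 251 lower of all genes) and 0 lower over the full span (424 higher and 468 lower of all genes). Over the full span AXL, GAS6, FGFR1 and FGF2 still passed that limit, and TYRO3 and FGFR4, at 1.18 and 1.44, did not. Scaling to equal sums moved the median of all genes to 0.14 in the first step and 0.22 over the full span, and the share of higher calls from 38.7% to 53.7% and from 51.3% to 66.1%. Of 672 recomputed list counts, 49 moved by over 1.5 times. Of 336 recomputed list medians, 318 stayed on the same side of the limit, 10 fell within it, 7 passed it, and 1 that had been within it passed it with the opposite sign. Counting intervals overlapped in the first step of GAS6 and in the second step of FGFR2. No paired analysis was possible because each population had 1 library, and for the same reason no library could be left out.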

Other observations

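A transcript next to GAS6 was also highest in the dual-resistant library, at a far lower level. LOC100506394, whose row starts just beyond the end of GAS6 in the table, had 0.00866 FPKM in vehicle cells and 0.312 in dual-resistant cells, with 0 listed for erlotinib-resistant cells. FLJ41484, which lies inside GAS6, stood at 0.0367, 0.0353 and 0.0670 FPKM. Neither reached 1 FPKM. TYRO3P, a pseudogene of TYRO3, was listed at 0 in all 3 libraries. Of the neighbours of AXL and FGFR1, only HNRNPUL1 and LETM2 were looked up, and neither shared the course of the gene beside it. HNRNPUL1, next to AXL, stood at 66.3, 87.2 and 78.2 FPKM and LETM2, next to FGFR1, at 1.21, 1.73 and 1.36.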
